A study of Mus musculus with 17 samples.

Results

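The 38 genes described here were taken from the 4 mouse Hox clusters by name: 10 genes of the HoxA cluster on chromosome 6, 10 of HoxB on chromosome 11, 9 of HoxC on chromosome 15 and 9 of HoxD on chromosome 2. They were found by Ensembl gene identifier among the 49671 genes of the count tables. The choice went by name and used no measured value, but it was made with earlier results of these data known. The libraries came from R1 mouse embryonic stem cells carrying a FOXA2-Venus reporter, in which a fluorescent protein reads out FOXA2, a transcription factor of the floor plate at the ventral midline of the neural tube. The series is titled as a study of neural tube organoids. All 17 libraries had received retinoic acid (RA). In the RA arm the label gives 18 hours of RA alone, with 3 FOXA2-negative and 3 FOXA2-positive libraries. In the BMP4 arm 18 hours of RA were followed by an untreated interval of 6 hours and then by BMP4, a bone morphogenetic protein, for 8 hours, with 3 libraries per fraction. In the LDN arm LDN took the place of BMP4 for the same 8 hours, with 3 FOXA2-negative and 2 FOXA2-positive libraries. The labels name LDN only by these letters, which are used for inhibitors of BMP receptors. The RA arm may have been collected earlier than the other arms, so agent and time cannot be told apart in comparisons with RA. The labels do not state whether replicate libraries are separate cultures. Their spread, on which each p-value rests, may therefore be technical. All libraries share 1 stem cell line, and without a reporter-free or RA-free group the levels have no untreated reference.

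Hox genes encode homeodomain transcription factors that give cells their position along the head-to-tail axis. Within a cluster they lie in the order in which they are switched on in time and along the body, with low paralogue numbers acting in the hindbrain and high numbers towards the tail. Retinoic acid is a classical inducer of the low-numbered genes, HOX proteins bind DNA together with PBX and MEIS cofactors, and Polycomb and Trithorax proteins keep the clusters silent or active.

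The libraries held 8435845 to 10796136 counts assigned to genes and 16139 to 18457 genes with at least 1 count. Foxa2 itself, the gene behind the sort, had mean levels of 0.311, 0.775 and 1.85 CPM (counts scaled to library size) in the FOXA2-negative and 23, 25.9 and 42 CPM in the FOXA2-positive RA, BMP4 and LDN groups. Shh, the signal that defines a mature floor plate, was at 0 in all groups but LDN FOXA2-positive. The 9 pluripotent-cell markers summed to 915 ± 182, 779 ± 166 and 887 ± 154 CPM (SD) in the FOXA2-negative groups, so these fractions still held pluripotent transcripts. Dppa5a alone held 608, 507 and 616 CPM of these sums, while Pou5f1 was at 59, 52.2 and 64.1 CPM. Both RA libraries numbered 1 stood apart, with 6.94% and 7.43% of counts from mitochondrial genes against at most 4.81% elsewhere.

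Counts were found for 35 of the 38 genes, and 16 were present in all 17 libraries. Hoxa11, Hoxc11 and Hoxd12 had none, which over all libraries together allows a level of up to 0.018 CPM (3 counts, counting error only). Levels declined from one end of the clusters to the other (plot of CPM by paralogue number). All 11 genes of paralogues 1 to 4 and 10 of 11 genes of paralogues 5 to 8 passed the filter on low counts, against 7 of 16 of paralogues 9 to 13. Per kilobase of exon, where genes can be compared with each other, the mean level over the 6 groups and the paralogue number had a Spearman correlation of -0.744 across the 38 genes, as a description of these libraries.

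**Figure D1:**
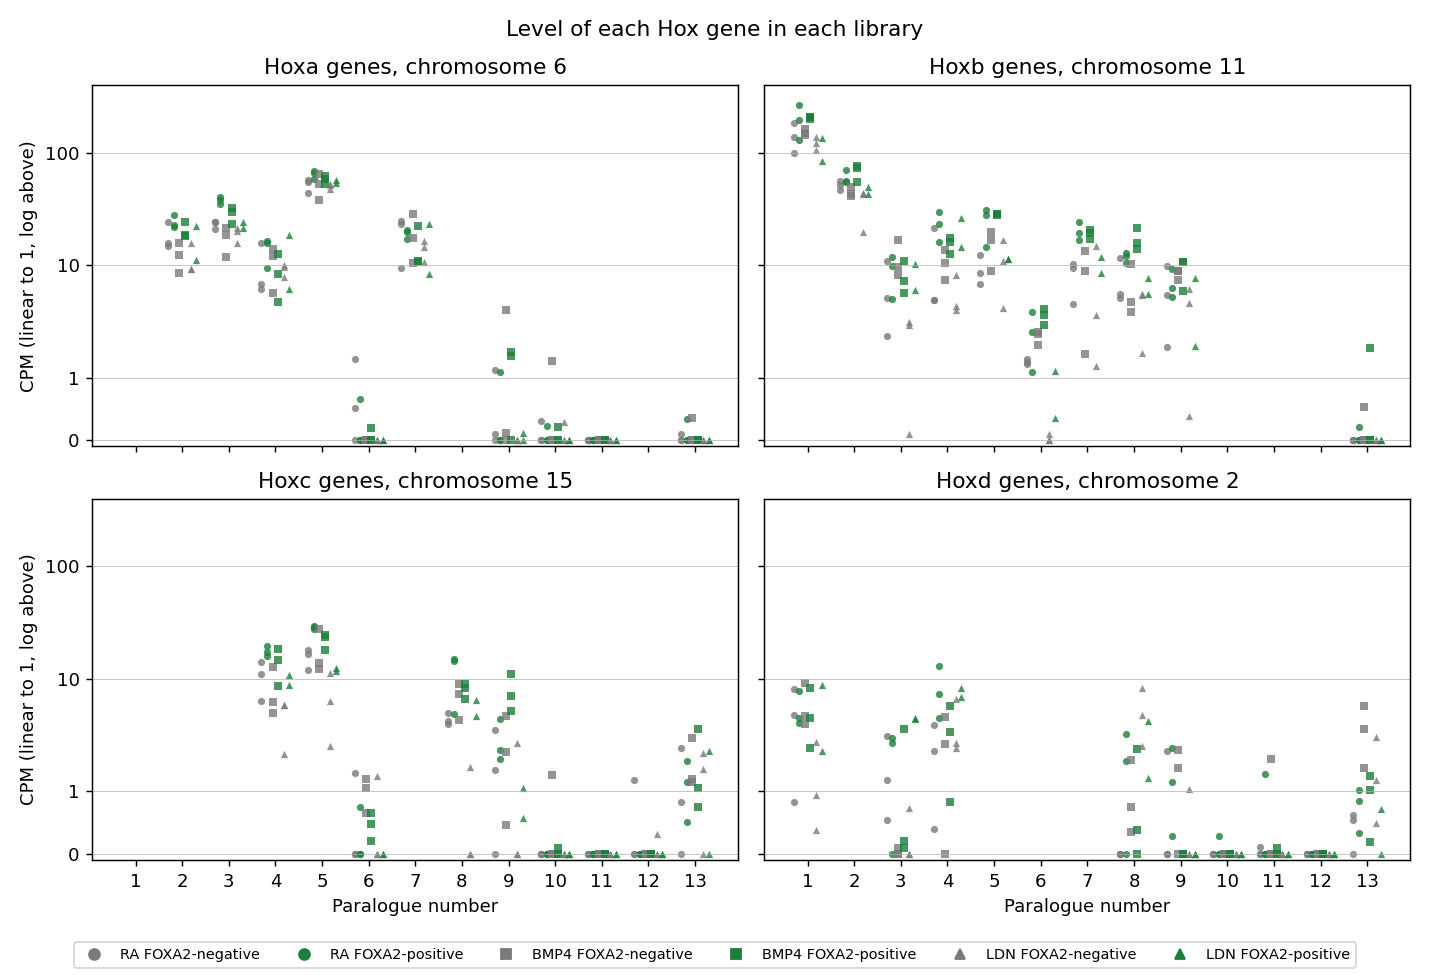
Level of each of the 38 genes in each of the 17 libraries, in CPM on an axis that is linear up to 1 and logarithmic above, against paralogue number, with 1 panel per cluster. Colour gives the FOXA2 fraction and marker shape the treatment. Hoxb1 lies highest in all panels, and genes numbered 10 to 12 lie near 0.

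On GRCm38, the annotation build matching the authors' mm10, the described genes span chr6:52162417-52260880 for HoxA, chr11:96194316-96368256 for HoxB, chr15:102921103-103036852 for HoxC and chr2:74668310-74765142 for HoxD. HoxB was the most abundant cluster, with 60.3% of the summed CPM of the 38 genes, against 27.8% for HoxA, 8.61% for HoxC and 3.3% for HoxD. Per kilobase, Hoxb1 led with 66.4 CPM, followed by Hoxa5 with 29.5, Hoxb2 with 14.6 and Hoxa2 with 9.67 CPM per kilobase. The decline with paralogue number was not smooth. The paralogues numbered 6 were low in each of 3 clusters, at 0.18 CPM per kilobase for Hoxa6, 0.892 for Hoxb6 and 0.183 for Hoxc6. Their neighbours numbered 5 reached 29.5, 5.92 and 5.58 and those numbered 7 reached 5.87 for Hoxa7 and 7.74 for Hoxb7. Exon overlaps put some of these levels in doubt. Antisense genes are among them, and no source used here says whether the counting used strand: Hoxb3 shares 2250 exon bases and Hoxb2 953 with Hoxb3os, and Hoxa3 shares 503 with Hoxaas2. Overlaps on the same strand, which a strand setting cannot separate, include Gm28230, which shares 2225 exon bases with Hoxd3 and 1154 with Hoxd4. Hoxd3 and Hoxd4 share 388 with each other, and Hoxc5 shares 166 with Hoxc10.

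Among paralogues 1 and 2, which pattern the hindbrain segments called rhombomeres, Hoxb1 was the highest of all 38 genes in each group. Hoxb1 marks rhombomere 4 and holds its own expression there by binding its own regulatory region with PBX. The FOXA2-negative libraries held 99.8, 139 and 185 CPM in RA, 161, 144 and 148 CPM in BMP4 and 138, 121 and 105 CPM in LDN of Hoxb1. The FOXA2-positive libraries held 129, 267 and 195 CPM in RA, 209.6, 199.6 and 207 CPM in BMP4 and 134 and 83.7 CPM in LDN. The 3 BMP4 FOXA2-positive libraries lay above all BMP4 FOXA2-negative and all LDN libraries, while the RA fractions overlapped. Hoxb2 is a target of Hoxb1 in rhombomere 4, where it acts in motor neuron patterning. Hoxb2 was at 46.9, 56.2 and 51.5 CPM in RA, 41.5, 43.1 and 49.99 CPM in BMP4 and 42.8, 43.6 and 19.7 CPM in LDN in FOXA2-negative cells. It was at 54.6, 70.4 and 55.6 CPM in RA, 55.2, 75.6 and 72.8 CPM in BMP4 and 49.98 and 43.2 CPM in LDN in FOXA2-positive cells. FOXA2-positive lay above FOXA2-negative libraries in BMP4 alone, and LDN FOXA2-negative replicate 3 was the lowest of all 17.

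Hoxa2 is the only Hox gene known to be expressed in rhombomere 2 and sets the identity of the second pharyngeal arch. Hoxa2 levels in FOXA2-negative cells were 14.8, 15.7 and 24.2 CPM in RA, 12.3, 15.8 and 8.49 CPM in BMP4 and 9.22, 15.7 and 9.22 CPM in LDN. Those in FOXA2-positive cells were 22, 22.7 and 27.9 CPM in RA, 24, 18 and 18.4 CPM in BMP4 and 11.2 and 22.5 CPM in LDN. The fractions did not overlap in BMP4 and overlapped in RA and LDN. Hoxd1, linked to sensory neuron circuits, was the most abundant HoxD gene by CPM. In FOXA2-negative cells Hoxd1 stood at 0.836, 8.13 and 4.83 CPM in RA, 4.65, 3.98 and 9.15 CPM in BMP4 and 0.943, 0.389 and 2.75 CPM in LDN. FOXA2-positive cells had 4.54, 4.04 and 7.77 CPM in RA, 2.46, 4.5 and 8.34 CPM in BMP4 and 2.27 and 8.79 CPM in LDN. The fractions of Hoxd1 overlapped in each arm, and 2 LDN FOXA2-negative libraries were under 1 CPM.

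RefSeq promoter windows on GRCm38.p6 are shown for the most abundant gene, Hoxb1, for Hoxb4 and Hoxa5, and for Hoxa2 and Hoxb8, whose windows hold a PBX-HOX motif like that of Hoxb1. Each window covers the 250 bases before the start site, written 5′ to 3′ on the gene's strand. Capitals mark matches on either strand to the PBX-HOX motif TGATNNAT, the TATA box TATAAA, the CCAAT box and the SMAD motif GGCGCC. The windows lie at chr11:96365508-96365757 on the plus strand for Hoxb1, chr11:96318017-96318266 on the plus strand for Hoxb4, chr11:96281655-96281904 on the plus strand for Hoxb8, chr6:52164832-52165081 on the minus strand for Hoxa2 and chr6:52204588-52204837 on the minus strand for Hoxa5.
Hoxb1: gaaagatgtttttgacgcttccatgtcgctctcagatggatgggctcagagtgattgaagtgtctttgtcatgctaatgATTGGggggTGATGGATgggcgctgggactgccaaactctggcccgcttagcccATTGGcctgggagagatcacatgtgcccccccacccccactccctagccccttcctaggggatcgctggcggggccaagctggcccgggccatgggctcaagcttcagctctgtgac
Hoxa2: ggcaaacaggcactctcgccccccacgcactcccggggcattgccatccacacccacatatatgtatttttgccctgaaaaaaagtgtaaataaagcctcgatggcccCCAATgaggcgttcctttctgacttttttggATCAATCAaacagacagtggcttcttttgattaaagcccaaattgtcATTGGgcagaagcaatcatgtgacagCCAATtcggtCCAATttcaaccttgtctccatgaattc
Hoxb8: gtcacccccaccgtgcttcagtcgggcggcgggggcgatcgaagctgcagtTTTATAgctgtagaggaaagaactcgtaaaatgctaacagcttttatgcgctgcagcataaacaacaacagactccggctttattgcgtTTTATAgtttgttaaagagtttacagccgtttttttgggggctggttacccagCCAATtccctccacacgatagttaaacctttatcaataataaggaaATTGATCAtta
Hoxb4: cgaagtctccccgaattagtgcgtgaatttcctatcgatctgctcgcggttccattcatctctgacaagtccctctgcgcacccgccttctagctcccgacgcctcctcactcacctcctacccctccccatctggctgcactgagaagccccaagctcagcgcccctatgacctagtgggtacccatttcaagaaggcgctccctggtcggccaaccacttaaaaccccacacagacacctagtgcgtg
Hoxa5: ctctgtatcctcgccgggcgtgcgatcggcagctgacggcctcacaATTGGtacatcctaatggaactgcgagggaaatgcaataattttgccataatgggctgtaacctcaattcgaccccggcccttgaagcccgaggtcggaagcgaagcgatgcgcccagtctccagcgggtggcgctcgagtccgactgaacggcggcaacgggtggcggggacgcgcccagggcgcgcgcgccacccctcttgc

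The Hoxb1 window holds TGATGGAT at 162 to 155 bases before the start site. The Hoxa2 window holds ATCAATCA, the motif on the other strand, at 111 to 104 bases, and the Hoxb8 window holds ATTGATCA at 11 to 4 bases. Of the 38 genes, 22 had a promoter in the table, with 24 windows in all. TGATNNAT was found in 4 of these 24 windows and in 7.68% of all 32851 windows of the table. CCAAT was found in 14 of 24 against 33.8%, TATAAA in 4 of 24 against 12.4% and GGCGCC in 5 of 24 against 9.59%. The DR5 retinoic acid response element, a direct repeat of the half-site AGGTCA, was in none of the 24 and in 0.00913% of all windows. It is too rare for 24 windows to show a difference. The half-site alone, not marked in capitals, was in 6 of 24 against 14%. The median ratio of observed to expected CpG was 0.721 in the 24 windows against 0.373 in all. These matches describe letters in a short window and are not binding sites.

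Paralogues 3 to 5 act in the caudal hindbrain and cervical spinal cord. Hoxa3, needed for the third pharyngeal arch and its glands, had a biological coefficient of variation between libraries of a group of 0.243 in the edgeR fit. The FOXA2-negative libraries held 24.1, 20.8 and 24.2 CPM in RA, 11.9, 21.4 and 18.6 CPM in BMP4 and 20.3, 15.6 and 21.6 CPM in LDN of Hoxa3. The FOXA2-positive libraries held 40.2, 35.3 and 37.6 CPM in RA, 23.1, 32 and 29.5 CPM in BMP4 and 21.6 and 24.4 CPM in LDN. FOXA2-positive libraries lay above FOXA2-negative ones in each arm, but in LDN the nearest pair was level, at 21.57 CPM in FOXA2-negative replicate 3 and 21.58 CPM in FOXA2-positive replicate 2. Hoxb4, whose neural expression starts at the boundary of rhombomeres 6 and 7, varied more, with a coefficient of 0.416. Hoxb4 was at 21.4, 4.9 and 4.94 CPM in RA, 7.33, 13.5 and 10.5 CPM in BMP4 and 3.98, 8.16 and 4.31 CPM in LDN in FOXA2-negative cells. It was at 23.2, 29.8 and 16 CPM in RA, 16, 17.3 and 12.7 CPM in BMP4 and 14.4 and 26.2 CPM in LDN in FOXA2-positive cells. The fractions did not overlap in LDN and overlapped in RA, where FOXA2-negative replicate 1 held over 4 times the level of the other 2. They also overlapped in BMP4.

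Hoxa5, which patterns the cervical region, was the highest HoxA gene and varied least between libraries of a group, with a biological coefficient of variation of 0.188 in the edgeR fit against a median of 0.455 over tested genes. Hoxa5 levels in FOXA2-negative cells were 57.4, 55.1 and 43.6 CPM in RA, 37.9, 64.4 and 52.7 CPM in BMP4 and 52.4, 47.5 and 51.1 CPM in LDN. Those in FOXA2-positive cells were 69, 66.3 and 58.1 CPM in RA, 62.4, 57.9 and 52.4 CPM in BMP4 and 57.4 and 54.3 CPM in LDN. The fractions were apart in RA and LDN and overlapped in BMP4. Hoxb5 acts at a similar axial level. In FOXA2-negative cells Hoxb5 stood at 6.79, 12.2 and 8.45 CPM in RA, 19.9, 16.8 and 8.96 CPM in BMP4 and 4.19, 16.7 and 10.9 CPM in LDN. FOXA2-positive cells had 14.4, 27.9 and 31 CPM in RA, 27.8, 28.3 and 28.6 CPM in BMP4 and 11.4 and 11.4 CPM in LDN. Hoxb5 was higher in all FOXA2-positive than in all FOXA2-negative libraries of RA and of BMP4, and the LDN fractions overlapped.

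Hoxc5 led the HoxC cluster. The FOXA2-negative libraries held 16.8, 12 and 18.2 CPM in RA, 13.8, 12.1 and 28 CPM in BMP4 and 6.39, 11.3 and 2.55 CPM in LDN of Hoxc5. The FOXA2-positive libraries held 27.8, 29 and 29.7 CPM in RA, 24.4, 23.7 and 18 CPM in BMP4 and 11.8 and 12.4 CPM in LDN. The Hoxc5 fractions were apart in RA and LDN, and BMP4 FOXA2-negative replicate 3 stood above the 3 FOXA2-positive libraries. LDN libraries were low in both fractions, with no LDN FOXA2-positive library reaching any of the RA or BMP4 FOXA2-positive ones. The remaining genes of these numbers had means over groups of 10.8 CPM for Hoxc4, 10.7 for Hoxa4, 7.45 for Hoxb3, 4.62 for Hoxd4 and 1.6 for Hoxd3. Across the 17 libraries Hoxc4 ranged from 2.16 to 19.5 CPM and Hoxa4 from 4.72 to 18.6 CPM. Hoxb3 was lowest in LDN FOXA2-negative replicate 3, at 0.098 CPM, and highest in BMP4 FOXA2-negative replicate 1, at 16.8 CPM. Hoxd3 was absent from 5 libraries, and its 2 LDN FOXA2-positive libraries, at 4.45 and 4.45 CPM, were its highest.

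Paralogues 6 to 9 act in the thoracic trunk. Hoxa7, Hoxb7, Hoxb8 and Hoxb9 were counted in all libraries, with means over groups of 16.9, 11.9, 8.88 and 6.45 CPM. Hoxb8 in BMP4 was at 3.84, 10.3 and 4.72 CPM in FOXA2-negative and 15.7, 13.9 and 21.3 CPM in FOXA2-positive cells, with no overlap. Hoxb7 there was at 8.84, 1.61 and 13.4 and 17, 19.2 and 20.5 CPM, also with no overlap. Hoxc8, which patterns brachial motor neurons, had the largest ratio between its highest and lowest group means among the genes of this range above 5 CPM. Hoxc8 was at 5.02, 4.21 and 3.95 CPM in RA, 4.3, 7.42 and 9.06 CPM in BMP4 and 0, 1.65 and 0 CPM in LDN in FOXA2-negative cells. It was at 14.5, 15 and 4.91 CPM in RA, 9.07, 6.7 and 8.34 CPM in BMP4 and 4.73 and 6.5 CPM in LDN in FOXA2-positive cells. In LDN FOXA2-negative cells the counts of Hoxc8 came from replicate 2 alone, with 17 counts. The fractions did not overlap in LDN and overlapped in RA and BMP4. Hoxd8 was highest where Hoxc8 was lowest, with 158 counts in LDN FOXA2-negative, 30 in BMP4 FOXA2-negative and 0 in RA FOXA2-negative cells. In FOXA2-positive cells Hoxd8 had 49, 27 and 49 counts in RA, BMP4 and LDN.

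The genes numbered 10 to 13, which pattern the lumbosacral axis, limbs and tail, were near the limit of detection. Hoxc13 and Hoxd13, at the tail end of their clusters, were above the genes beside them, with means of 1.39 and 1.27 CPM. The 3 counted genes numbered 10, the single counted gene numbered 11 and the counted Hoxc12 each had a mean over groups under 0.2 CPM, with single libraries at up to 1.94 CPM (Hoxd11 in BMP4 FOXA2-negative replicate 2). Hoxd13 was at 3.67 ± 2.09 CPM (SD, n = 3) in BMP4 FOXA2-negative cells, 1.6 ± 1.31 in LDN FOXA2-negative and 0.392 ± 0.342 in RA FOXA2-negative cells. Its 3 BMP4 FOXA2-negative values, 1.63, 5.81 and 3.58 CPM, lay above those of RA FOXA2-negative, 0.627, 0 and 0.549 CPM.

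Summed over the 38 genes, levels were higher in the FOXA2-positive groups of each arm. The sum was 408 ± 24 and 597 ± 85.2 CPM in RA FOXA2-negative and FOXA2-positive cells, 424 ± 31.9 and 569.9 ± 19.6 CPM in BMP4, and 321 ± 38 and 392 ± 26.3 CPM in LDN (mean ± SD, n = 3, and n = 2 for LDN FOXA2-positive). Paralogues 1 to 4 made up most of it, at 279 ± 31.9, 274 ± 7.07 and 214 ± 28.3 CPM in the FOXA2-negative RA, BMP4 and LDN groups. Paralogues 9 to 13 summed to 10.7 ± 6.2, 20.9 ± 2.62 and 8.03 ± 5.22 CPM in the same groups and to 14.3 ± 3.57, 21.4 ± 6.95 and 7.18 ± 4.71 CPM in the FOXA2-positive ones. These high-numbered genes, of which Hoxb9 and Hoxc9 were the most abundant, had their largest sums after BMP4 in both fractions. No test was made on these sums.

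The first comparison set FOXA2-positive against FOXA2-negative cells, averaged over the 3 treatments, and asked whether the reporter fractions differ in Hox expression. Hoxb4, Hoxa3 and Hoxc8 rose in FOXA2-positive cells, and no Hox gene fell, among the 28 tested by edgeR's quasi-likelihood test with Benjamini-Hochberg adjustment over 17813 genes (called at an adjusted p under 0.05). Over all genes 7.62% were called, 3.12% higher and 4.5% lower. The log2 fold change of Hoxb4 was 1.19 ± 0.29 (SE, adjusted p = 0.0112). That of Hoxa3 was 0.56 ± 0.17 (adjusted p = 0.0366) and that of Hoxc8 1.63 ± 0.50 (adjusted p = 0.0436). The Hoxb4 call was lost when LDN FOXA2-positive replicate 3 was left out (adjusted p = 0.0624). The Hoxa3 call was lost on leaving out 11 of the 17 libraries in turn and the Hoxc8 call on leaving out 15. Without a filter on low counts the Hoxa3 call was also lost (adjusted p = 0.0658). A fit with a replicate block paired the same-numbered fractions of each arm, not those of RA alone. It called 6 genes higher: Hoxa3 and Hoxb4 again and Hoxb2, Hoxb7, Hoxb8 and Hoxc4. Hoxc8 was not called there (adjusted p = 0.0666). DESeq2 called 8, the same 3 with Hoxb5, Hoxb6, Hoxb8, Hoxc4 and Hoxd3.

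Most other Hox genes pointed the same way without being called by edgeR without a block. Of the 28 tested, 22 had positive (47.4% of all tested genes) and 6 negative log2 fold changes, with a median of 0.65 against -0.03 over all tested genes. With genes at 0 in a group set to the bound that 3 counts allow, the median was 0.61. Hoxb5 (0.80 ± 0.25, adjusted p = 0.0507), Hoxc4 (0.88 ± 0.29, 0.062), Hoxb8 (0.92 ± 0.31, 0.075), Hoxb7 (1.06 ± 0.38, 0.0947), Hoxb2 (0.41 ± 0.15, 0.0964) and Hoxc5 (0.67 ± 0.24, 0.0989) lay just outside the threshold there. At an unadjusted p under 0.05 there were 14, of which Hoxd9 was negative, against 20.2% of all tested genes. All 9 tested HoxB genes (median 0.80) and all 11 genes of paralogues 1 to 4 (median 0.66) had positive values. Of the 7 tested genes of paralogues 9 to 13, 3 were positive and 4 negative. The 2 most abundant genes had smaller values, with 0.26 ± 0.13 for Hoxb1 (adjusted p = 0.283) and 0.20 ± 0.12 for Hoxa5 (adjusted p = 0.381).

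**Figure D2:**
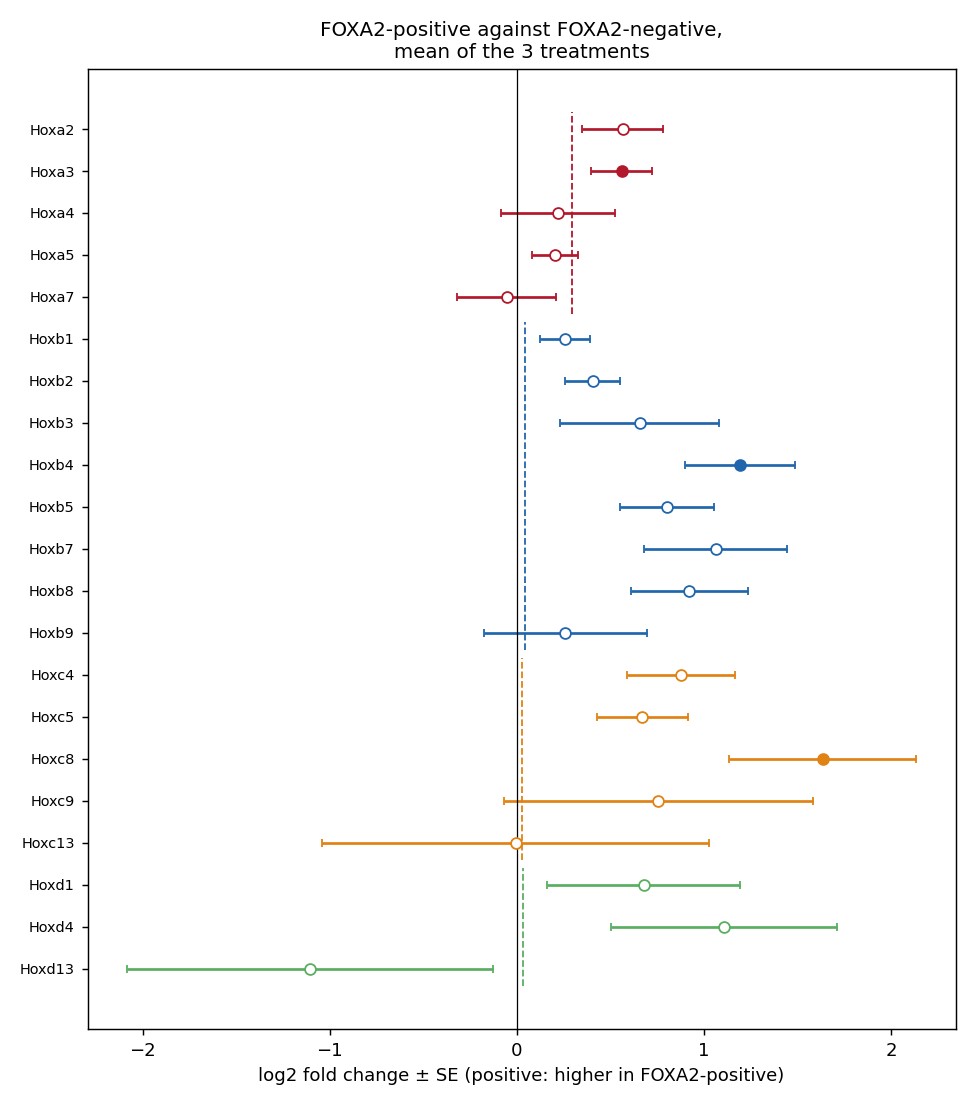
Log2 fold change of FOXA2-positive over FOXA2-negative cells, averaged over 3 treatments, with its standard error, for the 21 tested genes with more than 3 counts in every group. Filled points are called, dashed lines give the median of other genes on the same chromosome, and 18 of the 21 points lie above 0.

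The other genes of the HoxA chromosome were also shifted. The 333 other genes of chromosome 6 with a mean of at least 20 CPM had a median log2 fold change of 0.29, with 85.9% positive, against medians of 0.03 on chromosome 2, 0.05 on 11 and 0.02 on 15. The shift was present in each arm, at 0.31 in RA, 0.34 in BMP4 and 0.24 in LDN. The 6 tested HoxA genes had a median of 0.39, and Hoxa5 at 0.20 and Hoxa7 at -0.06 were below the chromosome's median. Skap2 (0.35 ± 0.11, adjusted p = 0.0434) and Tax1bp1 (0.30 ± 0.09, adjusted p = 0.0418), both on chromosome 6, were the only 2 called among 16 genes that neighbour the clusters. The part of this shift in the Hoxa3 result was not tested. The chromosomes of HoxB, HoxC and HoxD had the medians of 0.05, 0.02 and 0.03 given above. These medians cover whole chromosomes and not only the genes next to a cluster.

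Within single treatments no Hox gene was called by edgeR, against 1.19% of all genes in RA, 0.921% in BMP4 and 0.994% in LDN. DESeq2 called 1 in RA (Hoxd8), 0 in BMP4 and 1 in LDN (Hoxc8). At an unadjusted p under 0.05 there were 6, 6 and 5 of 28, against 10.7%, 10.8% and 11.2% of all genes. In RA, 25 of 28 log2 fold changes were positive (49.4% of all genes; median 0.69, or 1.07 without FOXA2-negative replicate 1), in BMP4 17 (48.7%; median 0.25) and in LDN 20 (45.8%; median 0.42), while medians over all genes were within 0.03 of 0. The FOXA2-positive libraries lay above all FOXA2-negative ones for 7 genes in RA (7.25% of all genes), 10 in BMP4 (7.51%) and 10 in LDN (13.1%), and below for 0, 1 and 0 (7.99%, 7.31% and 14.7%). The gene below in BMP4 was Hoxd13, with 1.04, 1.36 and 0.194 against 1.63, 5.81 and 3.58 CPM.

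For Hoxb5 the log2 fold change was 1.41 ± 0.43 in RA (adjusted p = 0.13), 0.89 ± 0.42 in BMP4 (0.448) and 0.10 ± 0.47 in LDN (0.989). For Hoxb4 it was 1.14 ± 0.49 (0.38), 0.55 ± 0.49 (0.761) and 1.88 ± 0.54 (0.111), and for Hoxa3 0.71 ± 0.28 (0.311), 0.70 ± 0.28 (0.326) and 0.26 ± 0.31 (0.81). None of these differences between treatments was called in the tests of fraction by treatment, which by edgeR called 0 of 28 Hox genes for BMP4 with RA (0.00561% of all genes), LDN with RA (0.00561%) and BMP4 with LDN (0.0337%). At an unadjusted p under 0.05 those tests gave 2, 1 and 2 Hox genes, against 4.17%, 5.81% and 6.18% of all genes. DESeq2 called 0 in each. Some genes of few counts were seen in 1 fraction of an arm and nearly absent from the other. Hoxd8 had 17, 0 and 32 counts in the RA FOXA2-positive libraries and none in the FOXA2-negative ones. Hoxd9 had 20, 0 and 17 counts in the BMP4 FOXA2-negative libraries and none in the FOXA2-positive ones. Hoxd3 had 38, 2 and 1 counts in the BMP4 FOXA2-positive libraries against 0, 0 and 1 in the FOXA2-negative ones. In each of these cases at least 1 library of the higher group was level with the lower group, and for Hoxd3 replicate 1 held nearly all counts.

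**Figure D3:**
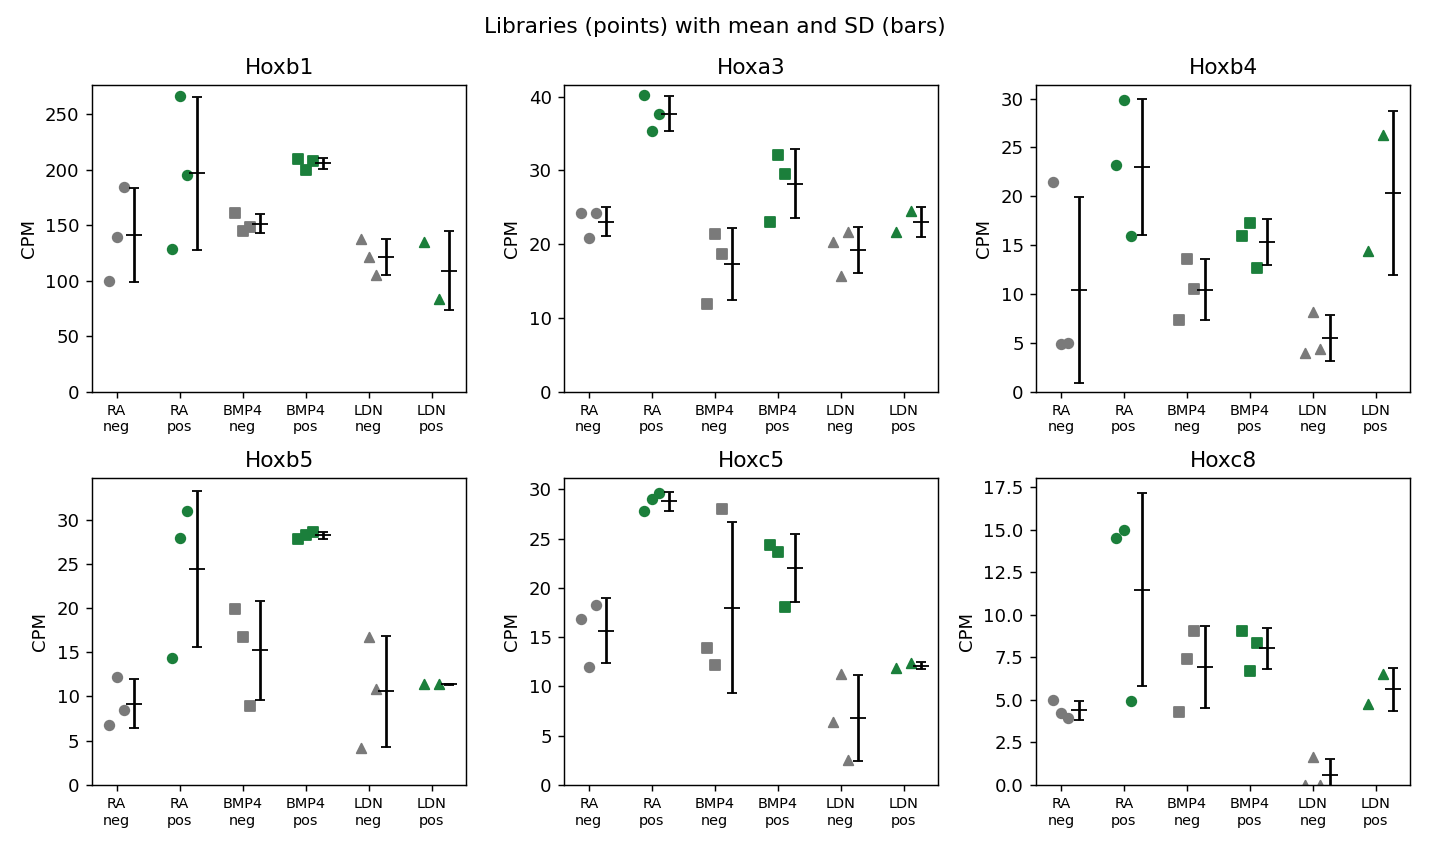
CPM of 6 Hox genes in each library by group, with group means and SD as bars; neg and pos are FOXA2-negative and FOXA2-positive cells. Hoxa3 is higher in the FOXA2-positive libraries of each arm, but in LDN the nearest pair of libraries is level. Hoxc5 and Hoxc8 are lowest in LDN FOXA2-negative cells.

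Beside these differences, genes of other identities moved with the fractions. Of 9 pluripotent-cell markers 8 fell in FOXA2-positive cells, among them Pou5f1 (-2.33 ± 0.18) and Zfp42 (-1.93 ± 0.16). The sum of the 9 was 352 ± 58.8, 362 ± 60.5 and 357 ± 17.5 CPM in FOXA2-positive RA, BMP4 and LDN cells. Dppa5a alone held 291, 279 and 308 CPM of these sums. Of 8 surface ectoderm markers 6 fell, and of 8 neural progenitor markers Cdh2 and Ncam1 rose. Of 4 tested endoderm markers Sox17, an endoderm transcription factor, rose (2.38 ± 0.32). The endoderm list summed to 9.5 ± 5.03, 20.4 ± 11.8 and 12.6 ± 6.75 CPM in FOXA2-negative and 40.1 ± 3.0, 58.7 ± 23.6 and 51.6 ± 23.7 CPM in FOXA2-positive RA, BMP4 and LDN cells. The part of these mixtures in the Hox differences was not tested, and in bulk samples fewer cells of a type and less RNA per cell cannot be told apart. The hindbrain segmentation list, regulators and markers of rhombomeres, also held genes that moved with the sort. Among them Fgf3 (1.94 ± 0.27), a signal made in the hindbrain, Gbx2 (0.97 ± 0.28), which sets the anterior border of the hindbrain, and Epha4 (0.86 ± 0.19), a receptor that keeps rhombomeres apart, rose in FOXA2-positive cells. Egr2, the regulator of Hoxa2 and Hoxb2 in rhombomeres 3 and 5, was not tested and was at 0 in 3 groups and at most 0.331 CPM on average in the others.

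Among the HOX cofactor genes Meis1 rose (0.99 ± 0.15, adjusted p = 5.26e-05). Meis1 was at 43.4 ± 7.13 and 78.4 ± 7.01 CPM in RA FOXA2-negative and FOXA2-positive cells, 47.2 ± 7.95 and 74.8 ± 7.2 in BMP4, and 30.6 ± 12.1 and 83.2 ± 10.1 in LDN. Of 10 retinoic acid response genes Cyp26b1, an RA-degrading enzyme (at most 0.317 CPM on average in a FOXA2-negative and at least 2.99 CPM in a FOXA2-positive group), Crabp1 (1.08 ± 0.27) and Crabp2 (0.59 ± 0.11), RA-binding proteins, rose and the receptor gene Rarg (-1.13 ± 0.19) fell. Of 20 Polycomb and Trithorax genes Ezh2 (0.42 ± 0.11) rose and Eed (-0.36 ± 0.11), Jarid2 (-0.46 ± 0.14), Phc1 (-0.77 ± 0.12) and Ash2l (-0.70 ± 0.07) fell. Of 5 tested forebrain and midbrain genes Otx2, which marks tissue anterior to the Hox domain, was called lower and was at 0 in all FOXA2-positive libraries. Its FOXA2-negative levels were also near the limit of detection, at 1.21 ± 1.69, 1.77 ± 1.22 and 0.419 ± 0.726 CPM in RA, BMP4 and LDN. Otx2 was at 0 in RA FOXA2-negative replicate 3 and LDN FOXA2-negative replicates 2 and 3. Of 7 tested Hox inducers and trunk genes none was called by edgeR or DESeq2, with 3 at an unadjusted p under 0.05.

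BMP4 was then compared with LDN, the 2 arms with the same schedule. No Hox gene was called by edgeR in FOXA2-negative cells (0.196% of all genes), FOXA2-positive cells (0.32%) or their mean (0.786%). At an unadjusted p under 0.05 there were 6, 3 and 10 of 28 genes, against 7.06%, 7.37% and 9.35% of all genes. DESeq2 called 2 in FOXA2-negative cells (Hoxb6 and Hoxc8), 0 in FOXA2-positive cells and 4 in the mean (Hoxb1, Hoxb6, Hoxc5 and Hoxc8). In the mean of both fractions 24 of 28 log2 fold changes were above 0, in the direction of BMP4 (52.3% of all genes), with a median of 0.78 against 0.02 over all tested genes. The median over the 21 genes with more than 3 counts in every group was 0.61.

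By cluster, all 9 tested HoxB genes (median 0.91), all 6 tested HoxC genes (median 1.60) and 5 of 6 HoxA genes (median 0.12) were above 0, as were 4 of 7 HoxD genes. Hoxb1 had a log2 fold change of 0.61 ± 0.17 (adjusted p = 0.0988), with 0.32 ± 0.22 in FOXA2-negative and 0.91 ± 0.25 in FOXA2-positive cells, and its BMP4 libraries lay above the LDN libraries in both fractions. Hoxc5 had 1.14 ± 0.31 (0.103) and its libraries were also apart in both fractions. Hoxc8 had 2.06 ± 0.66 (0.219), Hoxb5 0.91 ± 0.32 (0.304), Hoxb8 0.96 ± 0.40 (0.44) and Hoxb2 0.44 ± 0.19 (0.441). Without LDN FOXA2-negative replicate 2, the 1 library of its group with Hoxc8 counts, Hoxc8 was called (adjusted p = 0.000743). That fit left the group at 0 counts, so its log2 fold change of 4.80 rests on no measured LDN FOXA2-negative level. The call therefore adds no evidence of a difference. Hoxa5 (0.04 ± 0.15) and Hoxa3 (0.07 ± 0.21) had the values nearest 0 among the genes named above.

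**Figure D4:**
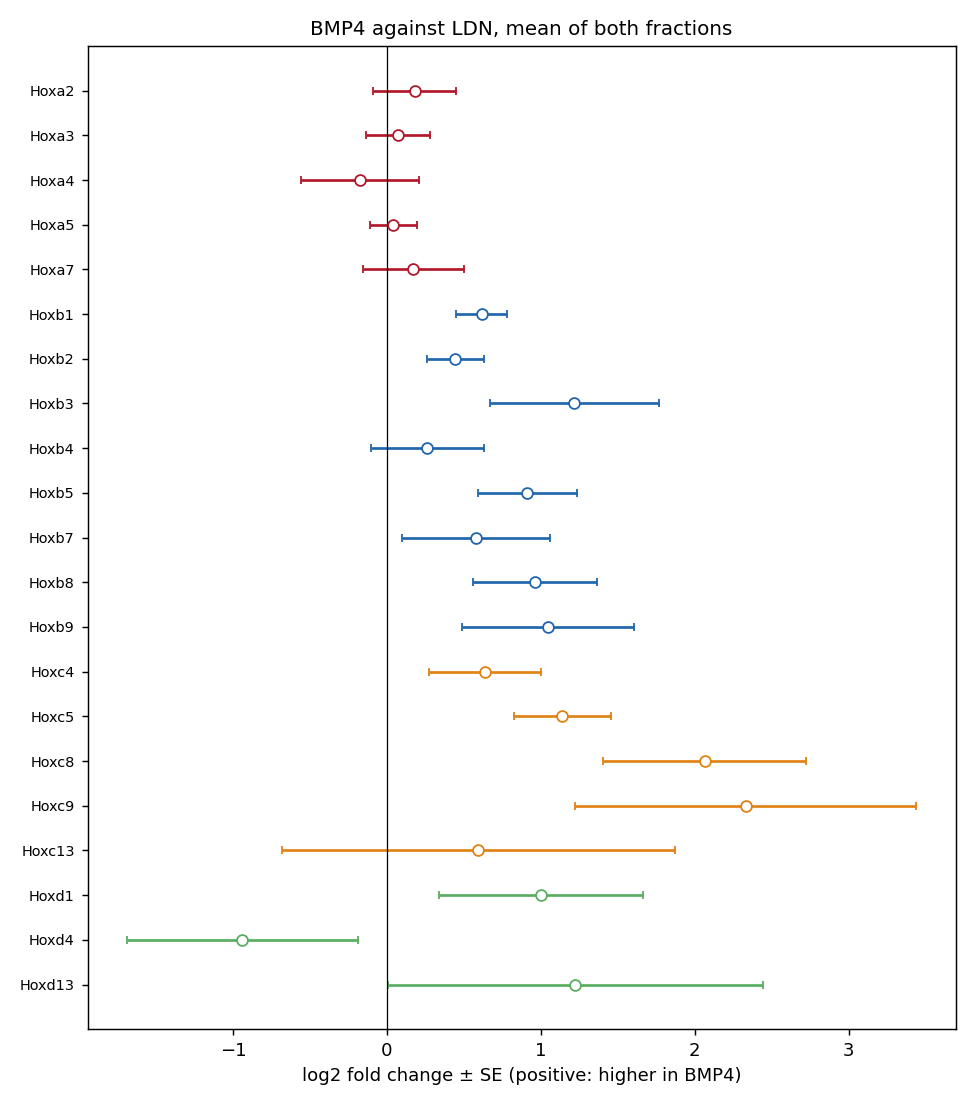
Log2 fold change of BMP4 over LDN, averaged over both fractions, with its standard error, for the 21 tested genes with more than 3 counts in every group. All points are open because no gene was called, 19 of 21 lie above 0, and the HoxA genes lie near 0.

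BMP4 and LDN libraries did not overlap, with BMP4 higher, for 7 Hox genes in FOXA2-negative cells (5.32% of all genes) and 10 in FOXA2-positive cells (11.6%). With BMP4 lower there was 1 (5.93%) and there were 2 (10.8%). In low counts, Hoxb6 had 66 counts in BMP4 FOXA2-negative cells and 1 in LDN FOXA2-negative cells, a ratio of 69.6 with a 95% counting interval of 12.1 to 2790. Hoxa9 had 43 counts in BMP4 and 0 in LDN FOXA2-negative cells, of which BMP4 replicate 3 held 42. Summed over the HoxC genes, the level was 38.7 ± 9.91 CPM in BMP4 FOXA2-negative and 14.7 ± 8.33 CPM in LDN FOXA2-negative cells (SD, n = 3), and the 3 BMP4 libraries lay above the 3 LDN ones. The HoxA sum was 112 ± 31 against 104 ± 3.93 CPM, less than the SD of the BMP4 libraries apart.

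**Figure D5:**
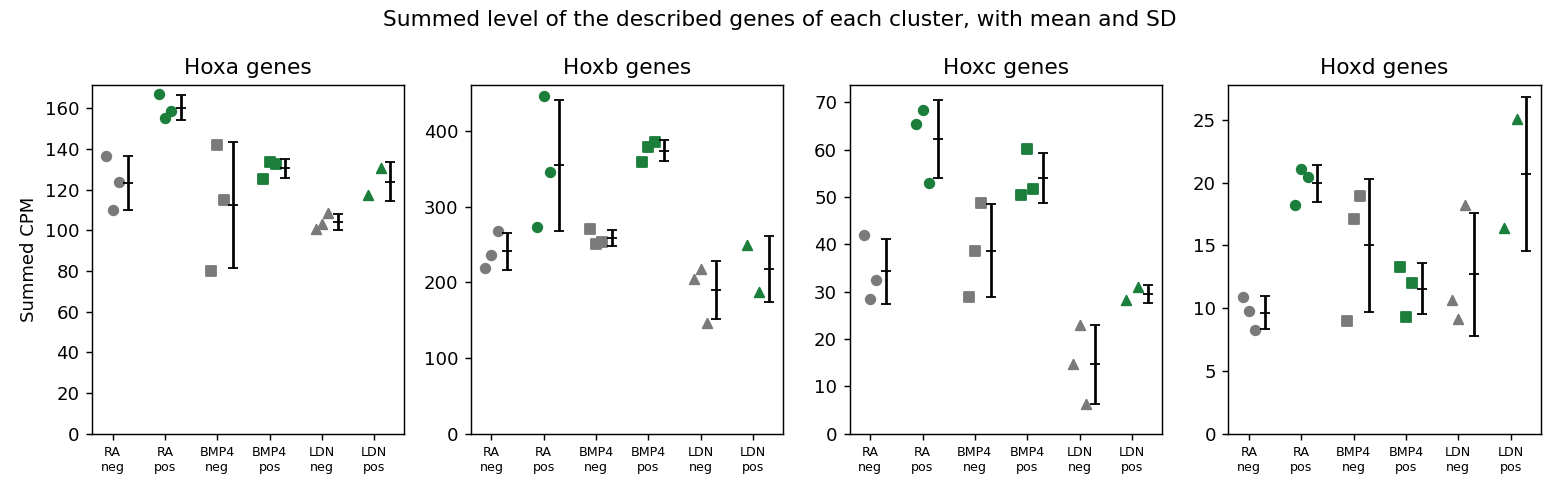
Summed CPM of the described genes of each cluster in each library, by group, with mean and SD as bars; neg and pos are FOXA2-negative and FOXA2-positive cells. The HoxC sum is lowest in LDN FOXA2-negative cells, at 14.7 CPM on average, and the HoxA sums differ least between groups as a ratio.

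Other genes moved between BMP4 and LDN beside the Hox genes. Cdx2, which activates trunk Hox genes, rose (1.83 ± 0.31, adjusted p = 0.00181), with 38.9 ± 25.8 CPM in BMP4 and 6.52 ± 1.39 CPM in LDN FOXA2-negative cells. It was the only 1 called of 7 tested Hox inducers and trunk genes. Stra6, the retinol transporter gene, fell (-1.64 ± 0.23, 0.000157), the only 1 called of 10 retinoic acid response genes. No cofactor, hindbrain segmentation, forebrain and midbrain, or Polycomb and Trithorax gene was called by edgeR, with 1 at an unadjusted p under 0.05 in each of these 4 lists, and DESeq2 called Gbx2 and Lhx2. Of 8 neural progenitor markers Sox1, Sox2, Sox3, Pax6 and Ncam1 fell in BMP4, and of 8 surface ectoderm markers Tfap2a, Gata3 and Dlx3 rose and Cdh1 fell. The neural progenitor sum was 396 ± 59.2 against 633 ± 35.8 CPM in FOXA2-negative and 528 ± 90.8 against 1007 ± 79.5 CPM in FOXA2-positive cells of BMP4 and LDN. The part of these markers in the Hox values was not tested.

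Against RA alone, no Hox gene was called by edgeR after BMP4 (0.0786% of all genes in either fraction) or after LDN (0.0393% in FOXA2-negative and 0.208% in FOXA2-positive cells). At an unadjusted p under 0.05 there were 2 (7.36%) and 1 (5.6%) for BMP4 and 7 (7.5%) and 4 (9.35%) for LDN, in FOXA2-negative and FOXA2-positive cells. DESeq2 called Hoxd8 in LDN FOXA2-negative cells and none in the other 3. The median log2 fold change of the 28 tested genes was 0.28 and -0.17 for BMP4 and -0.65 and -0.77 for LDN, with 23 (51.2% of all genes) and 25 (53.1%) of 28 genes below 0 for LDN. These comparisons share the RA libraries, and without both RA libraries numbered 1 the medians in FOXA2-negative cells moved to 0.66 for BMP4 and -0.15 for LDN. Hoxd8 went the other way. It was at least 50.6-fold higher in LDN than in RA FOXA2-negative cells, with 158 counts against 0, where 3 counts over the group set the bound, and 2.52, 4.76 and 8.33 CPM in the 3 LDN libraries. Hoxb6 had 40 counts in RA and 1 in LDN FOXA2-negative cells, a ratio of 41.6 with a 95% counting interval of 7.05 to 1680. Hoxc8 stood in 3 of 3 RA FOXA2-negative libraries above all LDN FOXA2-negative ones. Intervals and bounds cover counting error only.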

How the data were processed

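The deposited files hold 1 table of gene counts per library. Per the submitters' processing notes the authors used UMI-tools 1.0.0, cutadapt 1.18, HTSeq 0.11.2 and DESeq2 1.26.0 on mm10, and per the labels the libraries are SMART-Seq v2. Not given in the sources used here are the aligner, annotation release and strand setting. Summary lines that name no gene (49.3% to 54.4% of counts) were left out. Symbols were found for 49326 of 49671 genes, and exon lengths and overlaps come from a GENCODE annotation of GRCm38.

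The counts were fitted with edgeR 4.0.16 (R 4.3.3) by the robust quasi-likelihood test in 1 model of 6 groups, with TMM scaling and a filter of 10 counts, leaving 17813 genes, 28 of the 38 Hox genes and 11 residual degrees of freedom. Levels are TMM-scaled CPM, and p-values were adjusted by Benjamini-Hochberg over all tested genes. The 14 comparisons were also run with DESeq2 1.42.0, other filters and scaling, a replicate block and each library left out. The script was tested on simulated data. Same-numbered RA fractions deviated together (correlations 0.587, 0.238 and 0.277 over 6669 genes), while those of BMP4 (0.051 to 0.079) and LDN (0.057 and 0.062) did not reach 0.1. The block nonetheless paired same-numbered fractions in every arm. For comparisons between treatments it paired same-numbered libraries of a fraction across arms. The block changed no Hox call between the RA fractions. No replicate pair agreed within sampling noise. All Hox genes could be named. Values in every library were given for those called, those with a group mean of at least 20 CPM and the leading gene of each cluster. The genes and lists were chosen with earlier results of these data known. Some genes of the hindbrain and cofactor lists are not reported here.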

Additional observations from a re-analysis of the deposited data

How the results depend on the processing

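Of 204 medians over the Hox genes under an alternative, 194 moved by less than the spread between replicates, 0.35 log2 units. The spread is the pooled SD within groups of a library's median log2 CPM over the tested Hox genes. It is a yardstick from single libraries and not the error of a median fold change. In size that spread exceeds the main medians of 0.25 between BMP4 fractions and of 0.28 and -0.17 for BMP4 against RA. It also exceeds those for fraction by treatment (-0.23, -0.07 and -0.13). These medians could shrink to 0 and still count as unmoved. Between BMP4 fractions the median ranged from 0.051 to 0.52 with 1 library left out. For the mean difference between fractions the main count was 3, with 8 by DESeq2, 6 with the replicate block (Hoxa3, Hoxb2, Hoxb4, Hoxb7, Hoxb8 and Hoxc4) and 0 to 5 with 1 library left out, the 0 without LDN FOXA2-positive replicate 3, the 5 without LDN FOXA2-negative replicate 2, and 1 (Hoxb4) without RA FOXA2-positive replicate 2, BMP4 FOXA2-positive replicate 2 or 3 or LDN FOXA2-positive replicate 2. With the replicate block Hoxc8 was not called (adjusted p = 0.0666). For comparisons with a main count of 0, the fraction difference in RA had 1 by DESeq2, 2 without a filter and 0 to 1 with 1 library left out, the 1 without RA FOXA2-negative replicate 1; LDN had 1, 2 and 0 to 1. Each highest leave-one-out count given for a comparison with LDN came without LDN FOXA2-negative replicate 2. Each of these counts includes Hoxc8, which that omission left at 0 counts in its group. BMP4 against LDN had 2, 1 and 0 to 1 in FOXA2-negative cells, 1 without a filter in FOXA2-positive cells, and 4, 3 and 0 to 2 in the mean, with 1 from the compared groups only. LDN against RA had 1, 1 and 0 to 1 in FOXA2-negative cells, and 1 without a filter and 1 without both RA libraries numbered 1 in FOXA2-positive cells. The test of fraction by treatment for BMP4 against LDN had 0 to 1.

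Leaving out 1 library, the median ranged from 0.47 to 1.07 for the fraction difference in RA, from 0.44 to 1.03 for BMP4 against LDN in FOXA2-negative cells, from 0.0077 to 0.66 for BMP4 against RA and from -1.004 to -0.15 for LDN against RA in FOXA2-negative cells. For fraction by treatment it ranged from -0.39 to 0.31 for LDN against RA, where it reversed without LDN FOXA2-negative replicate 2, and from -0.53 to 0.19 for BMP4 against LDN. Without both RA libraries numbered 1 the medians in FOXA2-negative cells were 0.66 for BMP4 and -0.15 for LDN against RA. Signs of single genes were followed for a selection of genes and comparisons only. For the fractions within 1 treatment these were Hoxa3, Hoxb4, Hoxb5 and Hoxc8. No single gene was followed against RA alone or for fraction by treatment. Among those followed, the sign reversed in 3 cases. Hoxc8 reversed between BMP4 fractions (-0.0387 without BMP4 FOXA2-negative replicate 1, up to 0.45 without another library). Hoxb5 reversed between LDN fractions (-0.25 with the replicate block, -0.28 without LDN FOXA2-negative replicate 1 and up to 0.59 without another library). Where an LDN FOXA2-positive library was left out, the remaining one was assumed to vary like the other groups. The cause of these changes was not tested. Genes at a few CPM had the widest errors, and 10 of the 38 could not be tested at this depth.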
